A study of Danio rerio with 2 samples.

Results

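The 10 genes described here, pparg, cebpa, cebpb, cebpd, fabp11a, fabp11b, lpl, lpin1, plin2 and fasn, take part in the formation of fat cells and in the storage of lipid. They were chosen by name, and each matched 1 row of the 23809 genes in the deposited table. All 10 had at least 50 reads over both libraries, the minimum used throughout.

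The table holds 2 poly-A RNA libraries of whole zebrafish embryos at 3 days post fertilization. The control embryos were untreated, and the others were exposed to cyproconazole, a fungicide of the triazole class, at 20 µM from 4 hours post fertilization. Both groups have the genotype SAGFF(LF)53A mitfab692/+, so control and exposed embryos alike carried 1 mutant copy of mitfa, a regulator of pigment cells. Each library was 1 pool of 40 embryos, and the gene reads recovered from the table came to 18067935 for the control and 20726375 for cyproconazole. With 1 library per group there is no spread between samples and no test of the treatment, and every ratio below compares these 2 libraries. Intervals on reads are exact at 95% and cover counting error only. In RNA of whole embryos, fewer cells of a type and less RNA per cell cannot be told apart.

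In mammals, fat cells form in a cascade. The early factors C/EBPβ and C/EBPδ act before the nuclear receptor PPARγ and C/EBPα, and these switch on genes for fatty acid binding, uptake and storage. Triglyceride itself is built by adding fatty acids one after another to a glycerol backbone, and is kept in droplets coated with perilipins. The same genes also work outside fat tissue, in liver, muscle, gut and blood cells, and zebrafish fat cells first appear in larvae older than these embryos.

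Of the 10 genes, 2 lay 1.5-fold or more apart between the libraries on the log2(FPKM + 1) scale, where FPKM counts fragments scaled to transcript length and library depth. In the cyproconazole library cebpb was the 1 higher gene and lpin1 the 1 lower gene. Of all 18640 genes tested, 3.29% were that far apart, with 1.58% higher and 1.71% lower. The other 8 genes lay within 1.5-fold. The median difference over the 10 genes was 0.05 on the log2(FPKM + 1) scale, with 5 genes above 0 and 5 below, beside a median of 0.02 over all tested genes.

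**Figure D1:**
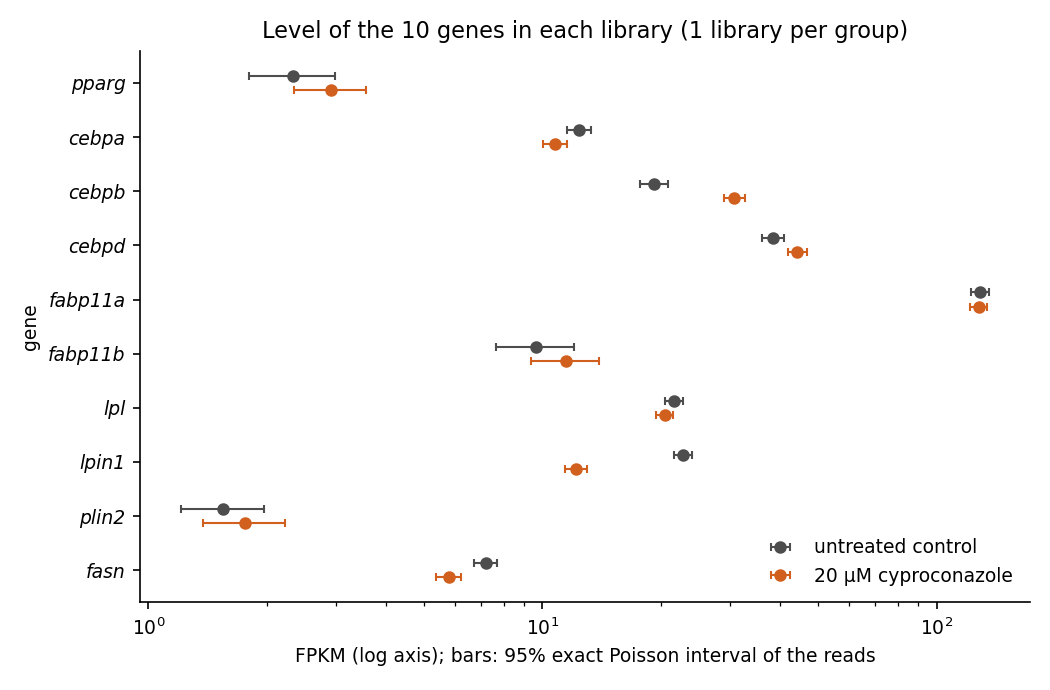
FPKM (log axis) of each of the 10 genes in the untreated control (grey) and the 20 µM cyproconazole library (orange), 1 library per group, with bars for the 95% exact Poisson interval of the reads. The points of cebpb (19.2 and 30.7 FPKM) and lpin1 (22.7 and 12.2 FPKM) lie farthest apart, and those of fabp11a (129 and 128 FPKM) coincide.

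The levels spanned a wide range and kept much of their order. The fatty acid carrier fabp11a was the most abundant in both libraries, at 129 and 128 FPKM (here and below, the control value comes first), above 97.0% of all tested genes by its mean FPKM. The droplet coat gene plin2 was the least abundant, at 1.55 and 1.76 FPKM, above 12.2% of tested genes. In the control the order below fabp11a was cebpd, lpin1, lpl, cebpb, cebpa, fabp11b, fasn, pparg and plin2. There, the counting intervals of lpin1 and lpl overlapped, as did those of lpl and cebpb, of cebpa and fabp11b, of fabp11b and fasn, and of pparg and plin2. In the cyproconazole library cebpb stood next below cebpd, ahead of lpl, and lpin1 came after lpl, with an interval that overlapped that of fabp11b and not that of lpl.

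Among the regulators, cebpb (ENSDARG00000042725), which encodes the early factor C/EBPβ, had 19.2 FPKM without and 30.7 FPKM with cyproconazole. The reads behind these values were 586 and 1070, a read ratio of 1.59 (1.43 to 1.76). Its difference of 0.65 on the log2(FPKM + 1) scale ranked 206 from the top among the 18640 tested genes. The second early factor, cebpd (ENSDARG00000087303), had 38.4 and 44.4 FPKM from 946 and 1248 reads, a read ratio of 1.15 (1.05 to 1.249). The interval of cebpd lay above 1 and well inside 1.5-fold.

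The late factor cebpa (ENSDARG00000036074) went the other way, with 12.4 and 10.8 FPKM. Its 772 and 764 reads gave a ratio of 0.860 (0.777 to 0.952). The balance among the 3 C/EBP genes was therefore different in the 2 libraries, and such a balance does not depend on how the libraries are scaled. There was 1.55 times as much cebpb as cebpa by FPKM in the control and 2.85 times as much with cyproconazole, a change of 1.84 (1.60 to 2.13) by reads. The level of cebpb relative to cebpd changed by 1.38 (1.21 to 1.58) and that of cebpd relative to cebpa by 1.33 (1.17 to 1.52), both by reads.

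The receptor gene pparg (ENSDARG00000031848), whose product directs fat-cell formation in mammals, had 2.33 and 2.91 FPKM. It rested on 64 and 91 reads, and its read ratio of 1.24 (0.888 to 1.73) covered 1. At this depth no difference could be detected, and the interval leaves room for a ratio above 1.5.

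The fatty acid carriers are small proteins that bind fatty acids inside the cell. The genes fabp11a (ENSDARG00000017299) and fabp11b (ENSDARG00000002311) have the current symbols fabp4a and fabp4b in the reference table, after the fat-cell carrier of mammals. For fabp11a, 1416 and 1598 reads gave a ratio of 0.981 (0.913 to 1.05). For fabp11b, with 9.64 and 11.5 FPKM, 79 and 104 reads gave 1.14 (0.846 to 1.55). The first carrier was 13.4 times as abundant as the second in the control and 11.2 times with cyproconazole by FPKM, and the change of this balance by reads, 0.857 (0.626 to 1.17), covered 1.

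The lipoprotein lipase gene lpl (ENSDARG00000087697), whose enzyme frees fatty acids from lipoproteins at the vessel wall, had 21.6 and 20.4 FPKM. Its 1394 and 1505 reads gave a ratio of 0.938 (0.872 to 1.01). The interval covered 1 and bounded the difference of these libraries to within 1.5-fold in either direction.

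The gene lpin1 (ENSDARG00000020239) encodes lipin 1, which removes the phosphate from phosphatidate to give the diacylglycerol from which triglyceride is made. Its level was 22.7 FPKM without and 12.2 FPKM with cyproconazole. Its difference of -0.85 on the log2(FPKM + 1) scale ranked 129 from the bottom among the 18640 tested genes. By reads, with 1301 and 971, the ratio was 0.649 (0.596 to 0.706), closer to 1 than the FPKM ratio of 0.537. The second lipin gene on the lists, lpin1b, was low, at 1.09 and 1.06 FPKM, with a read ratio of 0.975 (0.794 to 1.198). The level of lpin1 relative to lpin1b changed by 0.666 (0.532 to 0.832) by reads.

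The droplet coat gene plin2 (ENSDARG00000042332) had 69 and 70 reads. Its read ratio of 0.882 (0.623 to 1.248) covered 1, and its FPKM ratio of 1.14 was on the other side of 1, so that no direction can be given. The fatty acid synthase gene fasn (ENSDARG00000087657), whose enzyme makes palmitate, had 7.18 and 5.79 FPKM. Its 903 and 756 reads gave a ratio of 0.728 (0.660 to 0.802). The interval of fasn lay below 1 and reached to just past 1.5-fold.

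**Figure D2:**
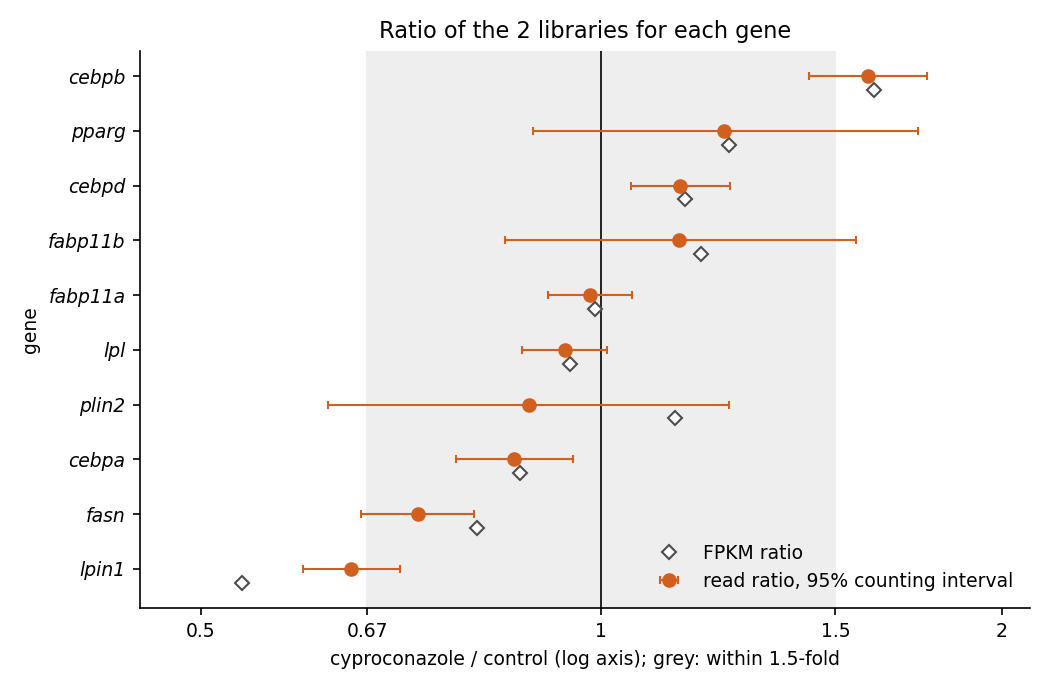
Ratio of the cyproconazole library to the control (log axis) for each of the 10 genes, as read ratios with 95% counting intervals (orange circles) and as FPKM ratios (open diamonds), with the range within 1.5-fold in grey. The read ratios run from 0.649 for lpin1 to 1.59 for cebpb, and the diamonds of lpin1, fasn and plin2 stand apart from their circles.

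By read ratio, cebpb was again the 1 higher gene and lpin1 the 1 lower gene past 1.5-fold, beside 2.86% and 3.13% of the 18621 tested genes with recovered reads. No interval of the 10 lay wholly past 1.5-fold. The counting interval lay above 1 for 2 genes, cebpb and cebpd, and below 1 for 3 genes, cebpa, lpin1 and fasn, and it covered 1 for the other 5. Over all tested genes the interval lay above 1 for 15.8% and below 1 for 14.5%. The interval narrows with depth, and 7 of the 10 genes had at least 1000 reads over both libraries. Among all 6931 genes that deep, 22.7% had an interval above 1 and 21.0% below 1, so that an interval off 1 by itself was common in these libraries. A ratio past 1.5-fold was rarer among them, at 0.505% higher and 1.28% lower.

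The reads of a gene divided by its FPKM and by the depth of the library give a quotient in kb, which is not a measured transcript length. For 7 of the 10 genes this quotient was the same in both libraries within 1.1-fold. For lpin1 it was 3.17 kb for the control and 3.84 kb with cyproconazole, for plin2 2.46 and 1.92 kb and for fasn 6.96 and 6.30 kb. A gap of at least 1.2-fold, as for lpin1 and plin2, was present in 5.96% of tested genes. The values of lpin1 and fasn depended on the measure, at -0.85 and -0.27 by log2(FPKM + 1) against -0.62 and -0.46 by log2 read ratio, with the same direction. What sets the measures apart was not tested.

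In the authors' deposited table, lpin1 ranked 24 and cebpb 37 of 23809 genes when ordered by the deposited p-value, with shrunken log2 ratios of -0.37 and 0.37. The same table placed fasn at rank 315, and the other 7 genes between rank 3563 and rank 19047. These p-values come from the same 2 libraries, with 1 per group, so they measure no spread between samples. The read ratios were themselves recovered from the authors' columns, so the ranks are no separate support for them.

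The other genes of these pathways were described with 11 lists, by how many lay past 1.5-fold. Outside the 10 genes, the lists held 141 tested genes, of which 2 were higher and 4 lower past 1.5-fold on the log2(FPKM + 1) scale. These are 4.26% of the 141, near the 3.29% of all tested genes, and their median difference was -0.02. The higher genes were pparaa and acsl5, and the lower genes were pnpla3, gpat3, g0s2 and abhd5a. By reads the counts were 4 higher and 6 lower, beside 2.86% and 3.13% of the tested genes with recovered reads. Here foxo1b and fabp10b were added to the higher genes and mcat and mogat2 to the lower. The intervals of fabp10b (0.987 to 2.47) and mogat2 (0.375 to 1.14) covered 1, and mcat had only 35 and 22 reads.

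**Figure D3:**
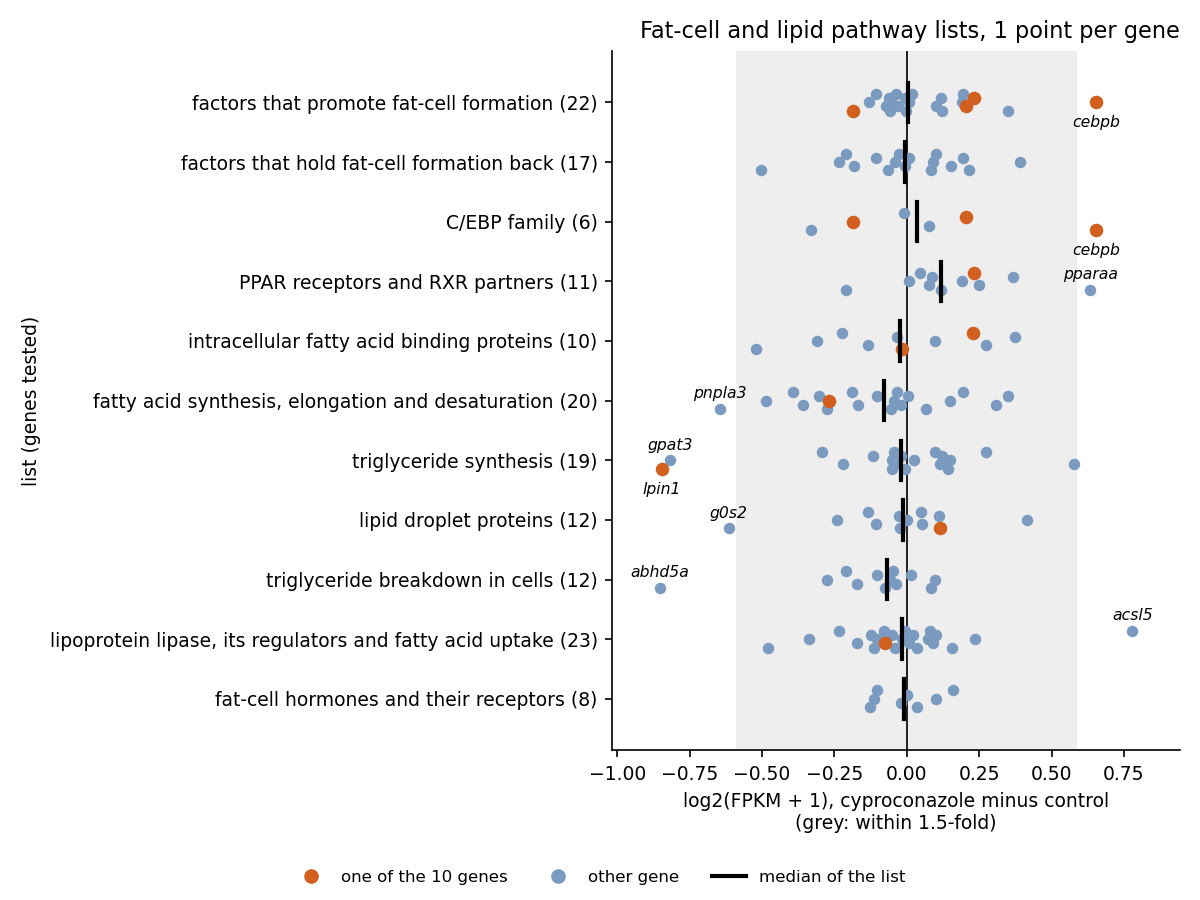
Difference of log2(FPKM + 1), cyproconazole minus control, for each tested gene of the 11 lists, with the 10 genes in orange, other genes in blue, the median of each list as a black bar and the range within 1.5-fold in grey. Medians lie between -0.08 and 0.12, and the named points are the genes past 1.5-fold.

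The list of factors that promote fat-cell formation had 22 tested genes, with 1 higher, cebpb, and 0 lower, and a median of 0.00. Beyond cebpb, the sterol and lipid regulator srebf1 had the largest difference among them, with 2.84 and 3.90 FPKM, or 1.37 (1.16 to 1.63) by reads. It was named after its value was seen. Of the 6 tested genes on the C/EBP list, 1 was past 1.5-fold, again cebpb, and the median was 0.03. On this list cebpg and cebpz, which are not members of the fat-cell cascade, had read ratios of 1.05 (0.971 to 1.13) and 0.969 (0.876 to 1.07), and cebp1, the C/EBP gene of fish myeloid cells, 0.916 (0.569 to 1.48).

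Over all tested genes the median was 0.02, so values above 0 were the more common. Among the PPAR receptors and their RXR partners, 10 of 11 genes were above 0, with a median of 0.12, and 1 was past 1.5-fold. This was pparaa, 1 of the genes for PPARα, the receptor that turns on the burning of fatty acids in liver. It had 2.31 and 4.14 FPKM from 95 and 179 reads, a ratio of 1.64 (1.27 to 2.12). Its copy pparab had 1.07 (0.752 to 1.52), and the change in the balance of the pair, 1.54 (0.989 to 2.38) by reads, covered 1. Of the RXR genes, named after their values were seen, rxrga had a read ratio of 1.34 (1.08 to 1.67) and rxrba 1.15 (1.06 to 1.24).

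Of the 10 tested fatty acid binding protein genes, 0 were past 1.5-fold, and the median was -0.02. The most abundant were the brain carrier fabp7a at 1073 and 1048 FPKM, the muscle and heart carrier fabp3 at 365 and 391 FPKM and fabp1b.1 of the gut at 307 and 398 FPKM. Both genes on the member list lay below these 3 in level. The liver carrier fabp10a had a read ratio of 0.702 (0.575 to 0.856), named after its value was seen.

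For fatty acid synthesis, elongation and desaturation, 14 of 20 tested genes were below 0. Their median was -0.08, beside 0.02 over all tested genes, with 1 gene past 1.5-fold. This gene was pnpla3, listed with these steps though it encodes an acyltransferase and lipase of droplets that follows the lipogenic program in mammalian liver. It had 6.28 and 3.65 FPKM, and 0.596 (0.490 to 0.723) by reads. The genes next to fasn in the pathway, described here for their place in it, had read ratios of 0.818 (0.741 to 0.903) for the acetyl-CoA carboxylase gene acaca, 0.927 (0.876 to 0.980) for acacb and 0.802 (0.715 to 0.899) for the desaturase gene scdb. The level of fasn relative to acaca changed by 0.890 (0.774 to 1.02) by reads and by 1.1 by FPKM, so that no direction can be given for this balance. The elongase gene elovl6 was on the other side, at 1.18 (1.05 to 1.32), as were acss2, at 1.09 (1.02 to 1.17), and srebf1. The citrate export genes slc25a1a and slc25a1b, farther up the pathway, had 1.11 (0.973 to 1.26) and 0.808 (0.689 to 0.948). Of the 20 tested genes, 3 had an interval above 1 and 7 below, beside 15.8% and 14.5% of all tested genes.

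For triglyceride synthesis, 19 tested genes had a median of -0.02. Past 1.5-fold, 0 were higher and 2 lower, beside 1.58% and 1.71% of all tested genes. The lower genes were gpat3 and lpin1, which is 1 of the 10 genes. Just inside 1.5-fold on the log2(FPKM + 1) scale was gpd1a, at 10.2 and 15.7 FPKM, an FPKM ratio of 1.54. It was named after its value was seen. The gene gpat3 encodes an enzyme of the first acylation step. It had 18.9 and 10.3 FPKM from 1067 and 661 reads. Its read ratio of 0.538 (0.488 to 0.594) was lower than that of lpin1. By FPKM the order was reversed, with ratios of 0.544 for gpat3 and 0.537 for lpin1. The level of gpat3 relative to gpat4, which acts at the same step, changed by 0.569 (0.496 to 0.653) by reads. The mitochondrial acyltransferase gene gpam had 0.821 (0.741 to 0.909).

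**Figure D4:**
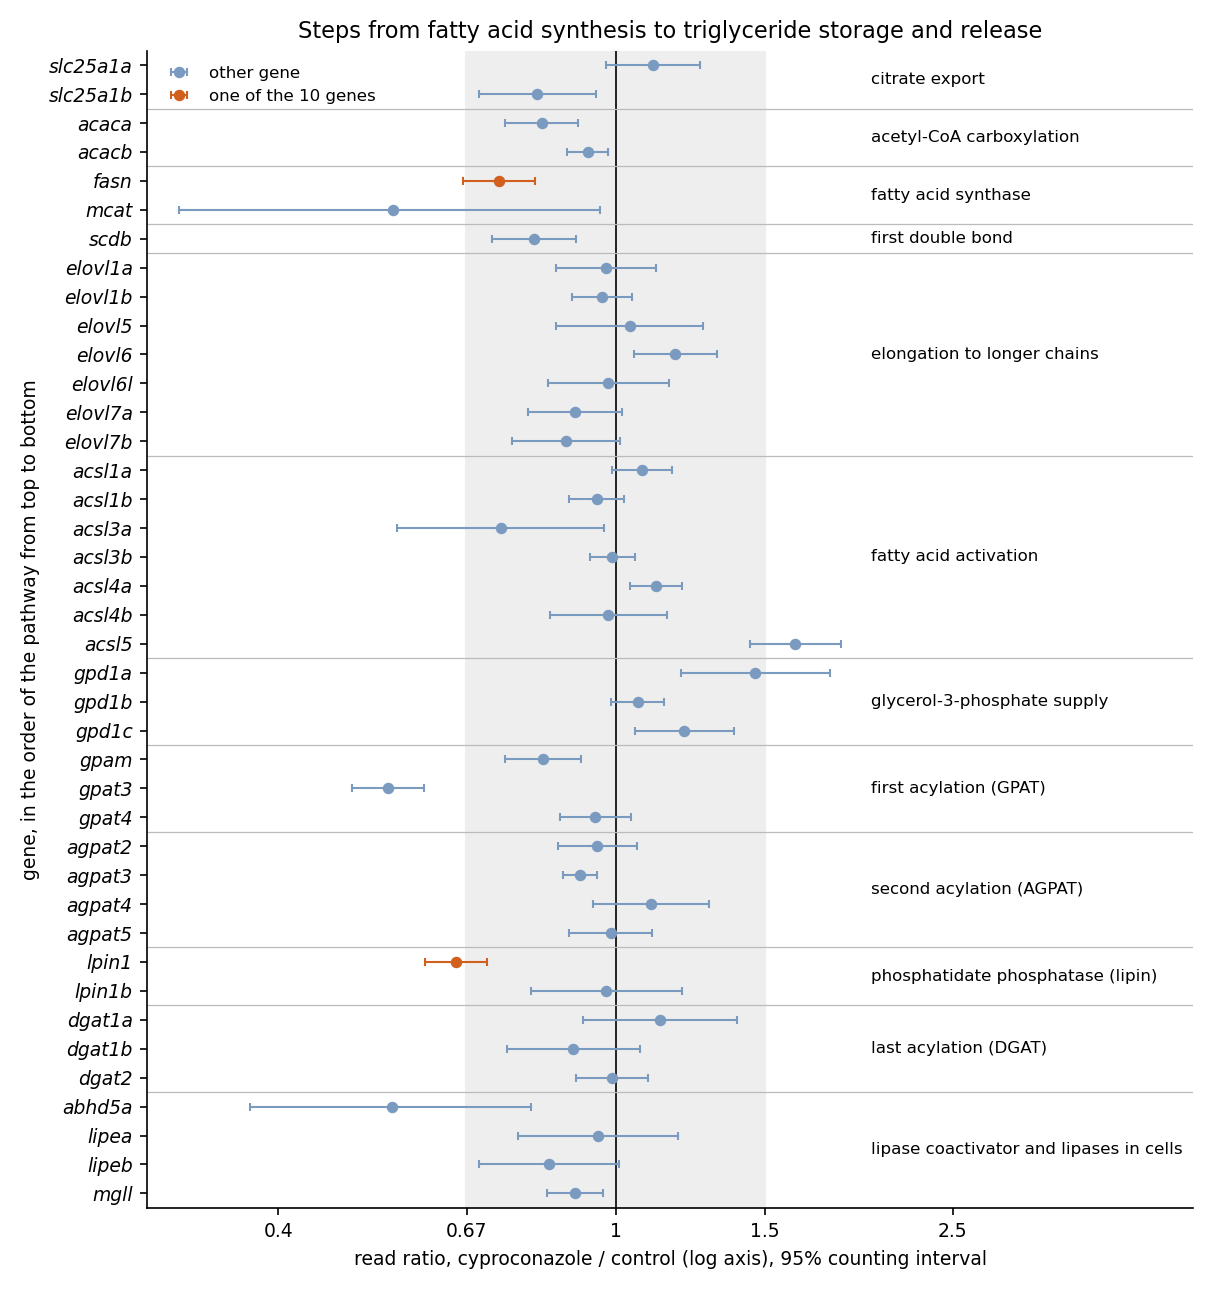
Read ratio of the cyproconazole library to the control (log axis) with 95% counting intervals for the genes of each step, from citrate export at the top to the release of fatty acids at the bottom, with fasn and lpin1 in orange, other genes in blue and the range within 1.5-fold in grey. Among the points outside the grey range are those of gpat3 (0.538), lpin1 (0.649) and acsl5 (1.63).

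The order of steps in the plot was drawn up with the values already seen, and the genes below were named for their place in it. In the supply of glycerol-3-phosphate, gpd1a, named above, had a read ratio of 1.46 (1.195 to 1.79) from 157 and 264 reads. The more abundant gpd1b and gpd1c had 1.06 (0.989 to 1.14) and 1.205 (1.05 to 1.38). Summed over these 3 genes the read ratio was 1.12 (1.06 to 1.19). The diacylglycerol acyltransferase gene dgat2, which acts last, was at 0.991 (0.899 to 1.09), and the level of lpin1 relative to dgat2 changed by 0.655 (0.575 to 0.745) by reads. The lower values at the first acylation and at the lipin step were those of gpat3, gpam and lpin1, while gpat4, at 0.946 (0.860 to 1.04), and lpin1b had intervals that covered 1.

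The droplet list had 12 tested genes, with a median of -0.01 and 1 gene past 1.5-fold. This was g0s2, which encodes an inhibitor of the main triglyceride lipase, at 2.95 and 1.58 FPKM, from only 41 and 25 reads, with a ratio of 0.530 (0.309 to 0.893). The perilipin genes plin3 and plin6 had read ratios of 1.09 (0.869 to 1.37) and 1.15 (0.736 to 1.81), so that no difference was detectable in any perilipin gene tested. In the breakdown list, 9 of 12 tested genes were below 0. Their median was -0.07, beside 0.02 over all tested genes, and 1 was past 1.5-fold. It was abhd5a, which encodes the activator of the same lipase, at 3.89 and 1.71 FPKM, from 75 and 47 reads, with a ratio of 0.545 (0.370 to 0.795).

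In the list of lpl, its regulators and fatty acid uptake, 23 tested genes had a median of -0.02, with 1 gene higher and 0 lower past 1.5-fold. The higher gene was acsl5, which encodes an enzyme that activates fatty acids with coenzyme A, at 5.62 and 10.4 FPKM from 398 and 745 reads, with a ratio of 1.63 (1.44 to 1.84). The lpl inhibitor gene angptl4 was close to lpl in its ratio. Its read ratio was 0.939 (0.869 to 1.01), and the balance of the pair changed by 1.0 (0.898 to 1.11). The lpl cofactor gene apoc2 had 0.878 (0.848 to 0.910). Its value was seen before it was named.

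Apart from fabp11a, the defining markers of mature fat cells were low or near the floor in both libraries. Of the 10 markers, 4 reached 50 reads, and all but fabp11a were at or below 3.67 FPKM in the control. The list summed to 138 and 136 FPKM, nearly all of it fabp11a, and 0 of the 4 were past 1.5-fold, with a median of -0.05. Next in level after fabp11a were lipeb, with 225 and 216 reads, and lipea, with 165 and 181 reads. The droplet coat gene of fat cells, plin1, had 4 and 3 reads, the adiponectin genes adipoqa and adipoqb 12 and 16 and 21 and 26 reads, and the leptin gene lepa 1 and 3 reads. The leptin gene lepb was listed at 0 FPKM with 0 reads in the control and had 2 reads in the cyproconazole library. The 10 genes were thus measured in embryos in which most transcripts that mark mature fat cells, fabp11a apart, were scarce.

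Markers of other cells that use these genes were compared on the same scale. For macrophages and neutrophils, in which C/EBP genes are also active, 0 of 15 tested markers were past 1.5-fold, the median was -0.09 and the summed levels were 154 and 141 FPKM. By reads, 0 of these markers were at least 1.5-fold higher and 3 lower, beside 2.86% and 3.13% of all genes. The 3 rested on few reads, with 46 and 35 for spi1b, 65 and 44 for mfap4 and 94 and 71 for mmp13a. The interval of spi1b (0.414 to 1.05) covered 1. The most abundant myeloid marker, lyz, had a read ratio of 0.909 (0.830 to 0.994) from 947 and 990 reads. The part of these cells in the values of the C/EBP genes was not tested. For liver, 1 of 17 markers was past 1.5-fold, the lower tdo2a, with a median of -0.03 by FPKM and 0.03 by log2 read ratio, and summed levels of 9739 and 9537 FPKM. For absorptive cells of the gut, 2 of 9 markers, vil1 and apoa4a, were at least 1.5-fold lower by FPKM, beside 1.71% of all tested genes. By reads 1 was, apoa4a, at 0.286 (0.203 to 0.396) from 152 and 50 reads, while vil1 had 0.723 (0.641 to 0.815). The gut list had 3 markers above 0 and 6 below, a median of -0.29 and summed levels of 921 and 963 FPKM. The summed level and the median of the gut list thus differ in direction. Of the 3 markers above 0, fabp1b.1 had 307 and 398 FPKM. The yolk syncytial layer had a median of -0.13 over 7 markers, with 0 past 1.5-fold and summed levels of 2176 and 2053 FPKM, and skeletal muscle 0.11 over 15, with 0 past 1.5-fold and summed levels of 51624 and 53809 FPKM. The part of gut and yolk markers in the lower values of fasn, gpat3 and lpin1 was not tested.

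**Figure D5:**
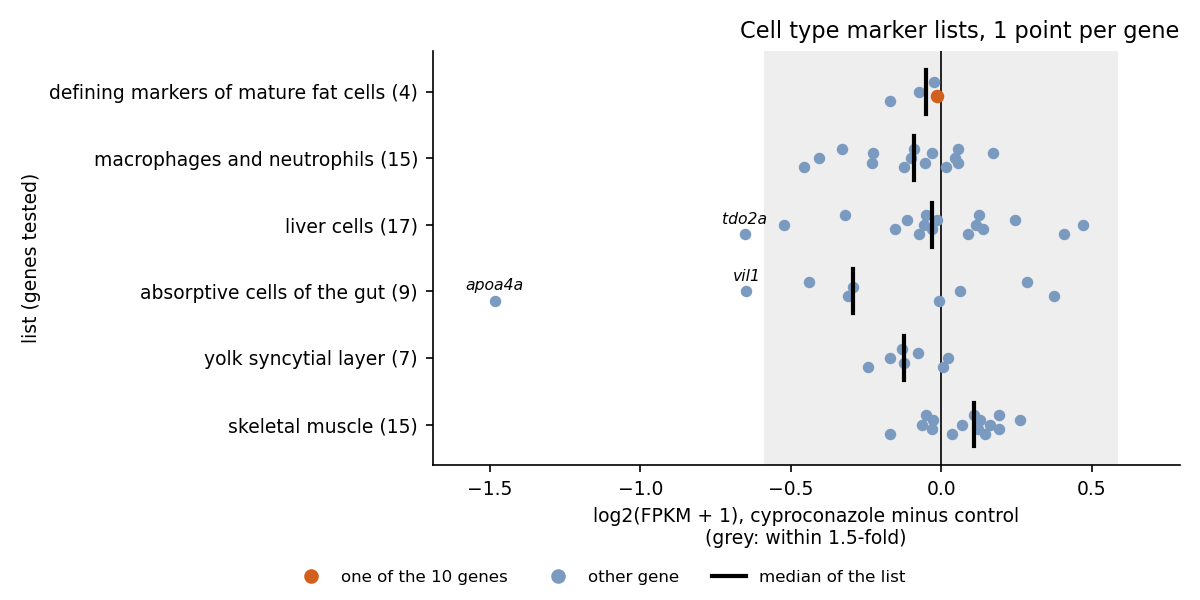
Difference of log2(FPKM + 1), cyproconazole minus control, for each tested marker of 6 cell types, with fabp11a in orange, other markers in blue, the median of each list as a black bar and the range within 1.5-fold in grey. Medians run from -0.29 for the gut to 0.11 for skeletal muscle, and tdo2a, vil1 and apoa4a are the markers past 1.5-fold.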

How the data were processed

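The authors deposited 1 table with an FPKM value per library for each gene, per the file headers. Further columns give a mean normalized count over both libraries, a signal scaled with size factors by the authors, and the authors' own log2 ratio, standard error, score and p-value, per the file headers. The submitters' processing notes name the build GRCz10 and the tools TopHat2 2.0.4, HTSeq 0.6.1, Cufflinks 2.1.1, Picard 1.29 and SAMtools, with no role for any. Which annotation and strand setting were used is not given in the sources used here. Paralogs (the fabp11, lpin1 and gpd1 genes among them), antisense and overlapping genes may therefore share reads that cannot be assigned. Gene positions and sequences were not used here.

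Differences are of log2(FPKM + 1), which understates the change of low genes, for genes with at least 50 reads and FPKM above 0 in both libraries. Whole reads were recovered from the deposited mean count, log2 ratio and standard error for 23790 of 23809 genes (99.92%). Every mean count is a whole multiple of 1 step within 0.0059 of that step. The steps of the control and the cyproconazole library are in the ratio 68 to 59. Where more than 1 pair of whole reads was possible, the kept pair had a modelled standard error that matched within 1e-05. Any next pair was at least 10 times farther off. For 7180 genes only 1 pair was possible, and it was kept without this match. For the 10 genes the kept pair matched within 7.8e-08 and the next pair missed by at least 0.0014. Scaling of read ratios used the trimmed mean of M values (30% of log ratios and 5% of means trimmed; offset from total reads 0.00 on the log2 scale), with exact conditional binomial (Clopper-Pearson) intervals. Reads carry no molecular identifiers, so intervals cover counting error only. The balance of a gene pair is an odds ratio with an exact conditional interval. The recovery, scaling and intervals were tested on simulated data made with the same model that the recovery inverts. That test therefore cannot show that the deposited columns follow the model. Its intervals were checked at the true scaling of the simulated libraries, not at the estimated one. Python 3.11.15, NumPy 2.4.6, pandas 2.3.3, SciPy 1.17.1 and Matplotlib 3.10.9 were used.

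The 10 genes, the lists and the read recovery were chosen with earlier results of these data known. Of each list, the genes past 1.5-fold were named, or otherwise genes among the 3 most abundant. Most other genes are marked in the text as named after their values were seen, or were named for their place in a pathway. Some carry no such mark, among them cebpg, cebpz, cebp1, plin3, plin6, lepr, angptl4, plin1, adipoqa, adipoqb and lepa. Some genes of the lists are not reported here. List genes were matched by the table's symbol and then by the current symbol of the gene ID.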

Additional observations from a re-analysis of the deposited data

How the results depend on the processing

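No paired analysis was possible because control and cyproconazole have 1 library apiece, which also means that none could be left out in turn. The counts of 1 higher and 1 lower gene past 1.5-fold were also found with 0.1 added to FPKM, with FPKM centred on the median gene, with read ratios under 4 scalings, with a minimum of 200 reads or 1 FPKM or none and at a smaller fold threshold. At a 2-fold threshold the counts were 0 higher and 0 lower, and with the read counting interval wholly past 1.5-fold they were also 0 higher and 0 lower. The median over the 10 genes ranged from -0.07 to 0.08. With a minimum of 200 reads, which left 7 genes, it was -0.08. The counting error of a single gene had a median of 0.14 over the 10 genes on the log2 scale. No counting error of the median difference itself was computed. Of 30 values of single genes under alternatives, 28 moved by less than their counting error, and the 2 others were lpin1 and fasn by read ratio, at -0.62 and -0.46; the cause was not tested. Of 51 values of lists under alternatives, 7 moved by read ratio: counts past 1.5-fold in the lists of holding factors, fatty acid binding proteins, fatty acid synthesis, myeloid cells, liver and gut, and the median of muscle, at 0.07. The count of lower triglyceride synthesis genes also went from 2 to 3 by read ratio, a step that the rule used did not class as moved. Depth limits pparg, fabp11b and plin2, whose intervals allow ratios well off 1.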

Other observations

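Factors that hold fat-cell formation back in mammals were measured by 17 tested genes, with 0 past 1.5-fold on the log2(FPKM + 1) scale and a median of -0.01. Among the most abundant were nr2f2 at 50.4 and 58.7 FPKM and tcf7l2 at 40.2 and 38.4 FPKM. By reads their ratios were 1.03 (0.985 to 1.07) for nr2f2 and 1.03 (0.972 to 1.09) for tcf7l2. The lowest was klf2a, a transcription factor gene of vessel lining cells under blood flow, at 14.6 and 10.0 FPKM, or 0.679 (0.604 to 0.762) by reads. The forkhead gene foxo1b had a read ratio of 1.501 (1.099 to 2.07). Both klf2a and foxo1b were named after their values were seen.

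Hormones of fat cells and their receptors were measured by 8 tested genes, with 0 past 1.5-fold and a median of -0.01. The retinol carrier gene rbp4, which is also a liver gene, was the most abundant at 1114 and 1030 FPKM, with a read ratio of 0.936 (0.916 to 0.956). The adiponectin receptor gene adipor1a had 0.998 (0.924 to 1.08), the leptin receptor gene lepr 1.05 (0.944 to 1.17) and the complement factor D gene cfd, called adipsin in mammals, 1.06 (0.94 to 1.21).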
